A study of Arabidopsis thaliana with 6 samples.

Results

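The 30 probe sets described here were the brightest named ones of the wild-type inflorescence stem of *Arabidopsis thaliana*. Each was tied to 1 gene by the probe table and had an intensity of at least 5793 in the mean of the 3 wild-type arrays, the mean being taken on the log2 scale. This value is called the brightness threshold below, and all intensities are given as log2. They were 30 of 22746 probe sets on the array, of which 13513 were tied to 1 gene, and they stood for 30 different genes. A further 94 probe sets were as bright in wild type and had no single gene in the table, 89 because they were not listed and 5 because they matched several genes, so the 30 are a named sample of the brightest signals. The wild-type values that chose them are given below as a description. The brightness of a probe set depends on its probe sequences as well as on the amount of transcript, so the order of the 30 among themselves is not an order of transcript abundance.

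The study compared wild type (WT) with 35S::CLE41, both in the Columbia ecotype, with 3 samples and 3 arrays of each. 35S::CLE41 plants express *CLE41*, the gene of a secreted peptide that acts on the vascular cambium, from a viral promoter that is active in most tissues. The *CLE41* probe set read 9.68, 9.42 and 9.98 in WT and 11.27, 11.73 and 11.38 in 35S::CLE41, so the groups did not overlap and the transgenic arrays were the higher ones (1.77 on the log2 scale, SE 0.18, adjusted p = 0.0013 by limma). The plants of both genotypes were 5 weeks old and had grown with 16 h of light and 8 h of dark, and RNA was taken from the lower part of the inflorescence stem with the 1 cm next to the rosette left out. The labels do not say how many lines or plants stand behind a sample, so a p-value sets a difference against sample-to-sample spread that may be technical, and the number of arrays limits the precision.

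A young *Arabidopsis* stem is a green organ. Its cortex cells hold chloroplasts, which carry many copies of their own genome and transcribe genes for the cores of both photosystems, the cytochrome complex, the ATP synthase and the NDH complex. Nuclear genes supply the antenna proteins, peripheral subunits and enzymes that work with these cores. Around and between these cells lie epidermis, phloem, cambium and lignifying xylem. In a whole-stem sample fewer cells of a type and less RNA per cell cannot be told apart. Of the marker genes listed for xylem, phloem, epidermis and green cortex none had a named probe set, so the tissue label was not checked by them. Of those listed for other organs, the root gene *PYK10* had a mean of 4.02 and the pollen gene AT3G01270 one of 5.41 in wild type, both near the lower end of the array's range.

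Plastid genes and nuclear genes of a list of photosynthesis genes together made up 14 of the 30. Bright genes outside that list, among them those known by locus only, were not counted, so 14 is a count by list. The plastid genome encoded 9 of them, although it supplied 0.511% of the probe sets tied to 1 gene. A further 5 were nuclear genes of the photosynthesis list. These counts depend on which genes the probe table names. Of the 64 nuclear genes on that list 10 had a named probe set, and the 94 equally bright probe sets without a single gene are left out. The remaining 16 were a peroxidase gene, a glycolysis gene, an alpha-tubulin gene, a pair of dehydrin genes, a glutathione transferase gene, *ECS1* and 9 genes known in the tables by locus only, to which no role is given here. The nuclear genes lay on all chromosomes, 9 of them on chromosome 1. No mitochondrion-encoded gene had a named probe set. The 30 probe sets, 0.132% of the array, gave between 3.27% and 3.34% of the summed linear intensity on the wild-type arrays and between 3.01% and 3.26% on the 35S::CLE41 arrays.

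Among the 30, 1 gene passed the test between the genotypes, and the typical size of the differences was close to that of the whole array. AT1G09310 was called at an adjusted p of 0.05 (limma, Benjamini-Hochberg adjustment over all 22746 probe sets), as lower in 35S::CLE41, and that call was lost whichever single array was left out. Leaving out 1 array also cut the calls over all probe sets, from 3364 to between 1699 and 2872. The 1 call is 3.33% of the 30, against 14.8% of all probe sets and 12.6% of those tied to 1 gene. At an unadjusted p of 0.05, 1 was higher and 8 were lower, and these 9 are a share close to the 29.3% of all probe sets. For 20 of the 30, or 66.7%, the 95% interval of the log2 difference lay within 0.5 of 0, that is within 1.41-fold in either direction, against 54.6% of all probe sets and 58.7% of those tied to 1 gene. Levels whose interval did so are called held below. Differences ran from -0.58 for AT4G30650 to 0.45 for AT1G75280, so none reached 2-fold. The median size of the difference, regardless of sign, was 0.154 on the log2 scale, against 0.165 over all probe sets and 0.147 over those tied to 1 gene. The signed median was -0.07, against 0.00 over all probe sets, with 22 differences below 0 and 8 above. The genotypes' arrays did not overlap for 13 of the 30, against 34.5% of all probe sets. Of the 13, 11 were lower in 35S::CLE41, while over all 22746 probe sets 3602 were lower and 4254 higher without overlap. Choice by a high WT mean leans the differences to the low side, so the split of signs was not tested. The signed median moved with the arrays that chose the probe sets. It was -0.01 for the 29 chosen by the 35S::CLE41 mean. Chosen on WT replicate 1, 2 or 3 alone and fitted on the other 5 arrays, it was -0.03, -0.09 and -0.06. With WT replicate 2 left out of both the choice and the fit it was -0.10, and here WT replicates 1 and 3 served in both.

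**Figure D1:**
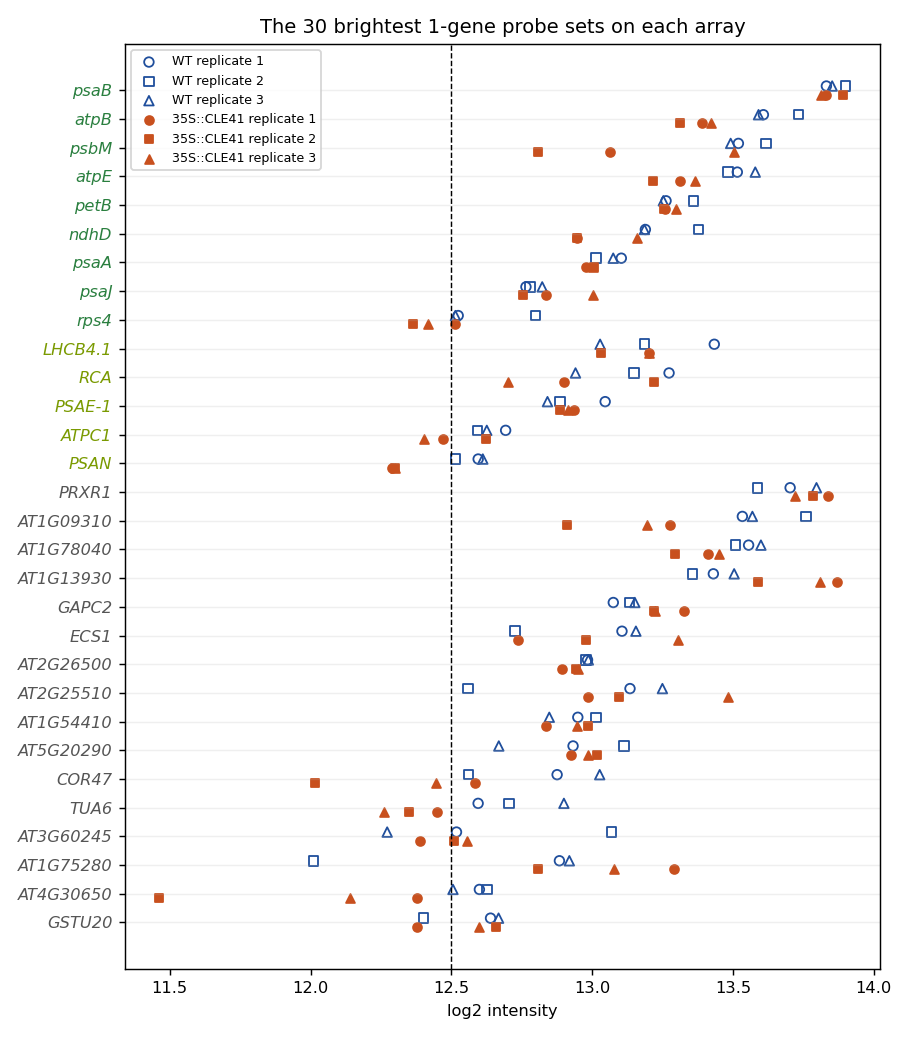
Log2 intensity (x axis) of each of the 30 bright probe sets (rows) on the 3 WT arrays (open symbols) and the 3 35S::CLE41 arrays (filled symbols). Plastid genes are in green, listed nuclear photosynthesis genes in olive and other nuclear genes in grey. The dashed line marks the brightness threshold. *psaB*, *petB* and *psaA* lie in tight clusters, while AT4G30650, *COR47* and *psbM* have their lowest point on 35S::CLE41 replicate 2 and AT1G75280 and AT2G25510 have theirs on WT replicate 2.

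The 3 bright plastid genes of photosystem I held their levels, which is not so of *psaC*, a dimmer one given below. *psaB* and *psaA* encode the paired core proteins that hold the reaction centre of photosystem I. *psaB* read 13.83, 13.90 and 13.85 on WT replicates 1 to 3 and 13.83, 13.89 and 13.81 on 35S::CLE41 replicates 1 to 3. All 6 arrays of *psaB* lay within the same narrow range, and the difference was -0.02 (SE 0.09; 95% interval -0.22 to 0.19; adjusted p = 0.938). *psaA* read 13.10, 13.01 and 13.07 in WT and 12.98, 13.007 and 13.0045 in 35S::CLE41. Its 35S::CLE41 arrays lay below all WT arrays by a margin of thousandths, and the difference was -0.07 (SE 0.09; 95% interval -0.27 to 0.14). *psaJ*, encoding a small membrane subunit of the same complex, read 12.76, 12.78 and 12.82 in WT and 12.84, 12.75 and 13.002 in 35S::CLE41. The groups overlapped for *psaJ*, and it was the 1 bright plastid gene with a difference above 0, at 0.08 (SE 0.10; 95% interval -0.16 to 0.31), a sign that turned with the arrays shifted to 1 median (-0.0034).

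Some neighbours of these genes were called lower. *psaA* and *psaB* lie side by side in the RefSeq gene order of the plastid genome, and the gene on the other side of *psaA*, *ycf3*, which is needed to assemble photosystem I, fell by 0.90 on the log2 scale (adjusted p = 0.024). *rpl33*, a ribosomal protein gene next to *psaJ*, fell by 0.78 (adjusted p = 0.0458). For both *ycf3* and *rpl33* the highest WT array was WT replicate 2. *rps14*, next to *psaB*, read between 4.81 and 4.91 on all 6 arrays, near the lower end of the array's range, so nothing is read from its difference. Beside other bright plastid genes given below, *petN* (next to *psbM*), *psbH* and *petD* (next to *petB*) and *ccsA* (next to *ndhD*) were not called. Their differences were 0.11, -0.25, 0.28 and 0.01.

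The 2 bright plastid genes of the ATP synthase stood slightly lower in 35S::CLE41. *atpB* encodes the catalytic beta subunit and *atpE* the epsilon subunit of the chloroplast ATP synthase, and the 2 genes share 4 bases in the RefSeq table. Whether 1 transcript reaches both probe sets was not tested. *atpB* read 13.61, 13.73 and 13.59 in WT and 13.39, 13.31 and 13.42 in 35S::CLE41. *atpE* read 13.52, 13.48 and 13.58 in WT and 13.31, 13.22 and 13.36 in 35S::CLE41. Every 35S::CLE41 array lay below every WT array for both genes, with the lowest value on 35S::CLE41 replicate 2. The differences were -0.27 (SE 0.09; 95% interval -0.49 to -0.05; adjusted p = 0.0998) for *atpB* and -0.23 (SE 0.09; 95% interval -0.44 to -0.01; adjusted p = 0.15) for *atpE*. Neither passed the test, and by their intervals both held. Among the dimmer plastid genes of this enzyme, *atpA*, *atpF*, *atpH* and *atpI* differed by -0.24, -0.20, -0.002 and -0.18. None of these was called, and their groups overlapped. *rbcL*, the gene of the large Rubisco subunit, which lies on the other side of *atpB*, differed by 0.43 (adjusted p = 0.684). *ATPC1*, a nuclear gene for the gamma subunit of the same enzyme, read 12.69, 12.59 and 12.63 in WT and 12.47, 12.62 and 12.40 in 35S::CLE41. Its groups overlapped through 35S::CLE41 replicate 2, and its level held with a difference of -0.14 (SE 0.10; 95% interval -0.37 to 0.09).

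Photosystem II was represented by *psbM* in the plastid and *LHCB4.1* in the nucleus. *psbM*, encoding a small subunit at the contact of the paired photosystem II cores, read 13.52, 13.62 and 13.49 in WT and 13.06, 12.81 and 13.50 in 35S::CLE41. The 35S::CLE41 arrays of *psbM* spread over 0.70, and replicate 3 lay within the WT values while the others lay below them. The difference was -0.42 (SE 0.17; 95% interval -0.81 to -0.02; adjusted p = 0.15), the 1 plastid level among the 9 that did not hold. Without 35S::CLE41 replicate 3 it was -0.61 and passed the threshold (adjusted p = 0.0365), and without replicate 2 of that genotype it was -0.26. *LHCB4.1*, encoding the minor antenna protein CP29, read 13.43, 13.19 and 13.03 in WT and 13.20, 13.03 and 13.20 in 35S::CLE41. The groups overlapped, WT replicate 1 was the highest array, and the level held at a difference of -0.07 (SE 0.13; 95% interval -0.36 to 0.22). Without WT replicate 1 the difference of *LHCB4.1* was 0.04.

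The 3 other bright plastid genes belonged to electron transport and to plastid translation. *petB*, which encodes the cytochrome subunit of the complex that links the photosystems, read 13.26, 13.36 and 13.25 in WT and 13.26, 13.26 and 13.30 in 35S::CLE41. This was one of the closest matches between the genotypes, with a difference of -0.02 (SE 0.09; 95% interval -0.23 to 0.19). *ndhD*, encoding a subunit of the NDH complex of cyclic electron flow, read 13.19, 13.38 and 13.19 in WT and 12.95, 12.94 and 13.16 in 35S::CLE41. Its groups did not overlap, yet 35S::CLE41 replicate 3 came close to the lower WT arrays, and the difference was -0.23 (SE 0.11; 95% interval -0.49 to 0.02; adjusted p = 0.205). *psaC*, which lies next to *ndhD* and encodes the iron-sulphur subunit of photosystem I, fell by 0.40 (adjusted p = 0.0276). *rps4*, encoding a protein of the small plastid ribosome subunit, read 12.52, 12.80 and 12.51 in WT and 12.51, 12.37 and 12.42 in 35S::CLE41. Its highest array was WT replicate 2, and the difference was -0.18 (SE 0.11; 95% interval -0.44 to 0.08; adjusted p = 0.349), or -0.09 without that array. These 3 levels held as well.

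None of the 9 bright plastid genes was called, with 3 at an unadjusted p of 0.05, a share not far from the 29.3% of all probe sets, and their median difference was -0.18. Of the 60 other plastid genes on the array 1 was called higher and 11 lower, with a median of -0.20. These calls are 20% of the 60, against 14.8% of all probe sets and 12.6% of those tied to 1 gene. The largest of these falls was that of *rpl22*, a plastid ribosomal protein gene, by 1.29 (adjusted p = 0.00477). The 1 rise was that of *psbA*, encoding the D1 protein of photosystem II, at 0.39 (adjusted p = 0.031), with 12.01, 11.89 and 12.02 in WT and 12.44, 12.29 and 12.37 in 35S::CLE41, below the brightness threshold. Held levels made up 8 of 9 bright plastid genes and 18 of the 60 others. The median SE was 0.09 in the former and 0.17 in the latter, so the brighter probe sets also gave narrower intervals. WT replicate 2 was the highest WT array for 10 of the 11 that were called lower, and without it 0 were called higher and 8 lower among the 60. That is 13.3%, against 12.6% of all probe sets and 10.5% of those tied to 1 gene in the same fit.

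**Figure D2:**
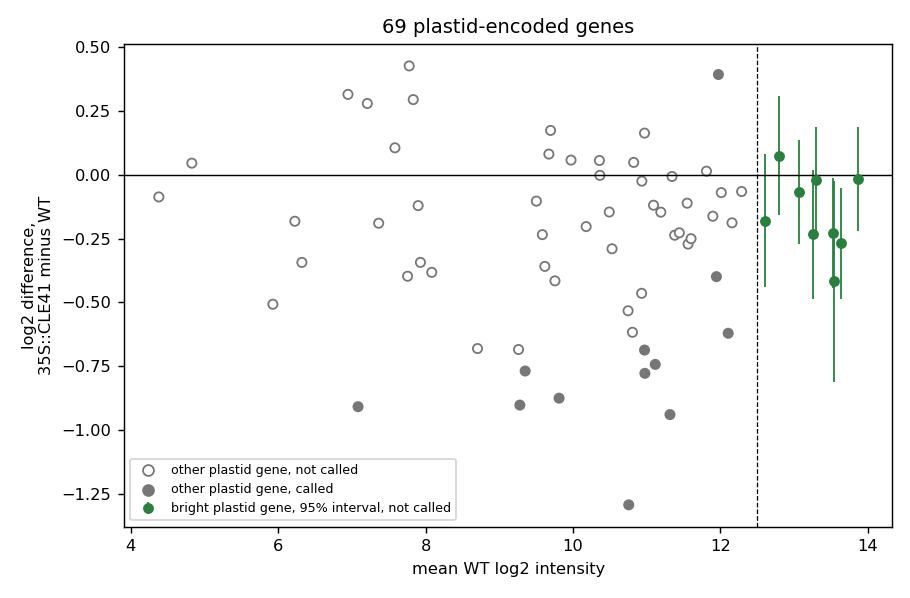
Log2 difference, 35S::CLE41 minus WT (y axis), against mean WT log2 intensity (x axis) for the 69 plastid genes with a named probe set. The 9 green points right of the dashed line, the brightness threshold, are the bright plastid genes with 95% intervals, none called; filled grey points are the 12 other plastid genes that were called, 11 of them below 0.

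Among the 5 bright nuclear genes of the photosynthesis list 4 levels held, against 54.6% of all probe sets. None was called, against 14.8%, and 1, *PSAN*, had an unadjusted p under 0.05, against 29.3%. *PSAE-1*, encoding a stromal subunit of photosystem I, read 13.05, 12.89 and 12.84 in WT and 12.93, 12.89 and 12.91 in 35S::CLE41. The 35S::CLE41 arrays lay inside the WT range, and the difference of -0.01 (SE 0.10; 95% interval -0.24 to 0.21) was the smallest of the list. *PSAN*, encoding a lumenal subunit of photosystem I, read 12.59, 12.51 and 12.61 in WT and 12.29, 12.30 and 12.30 in 35S::CLE41. Every 35S::CLE41 array lay below every WT array, and the 35S::CLE41 values spread over 0.01 only. The difference of *PSAN* was -0.28 (SE 0.09; 95% interval -0.48 to -0.07; adjusted p = 0.0753), which passed the threshold with array weights (-0.293; adjusted p = 0.0416) and with arrays shifted to 1 median (-0.356; adjusted p = 0.0403). *RCA*, encoding Rubisco activase, which keeps the carbon-fixing enzyme active, read 13.27, 13.15 and 12.94 in WT and 12.90, 13.22 and 12.70 in 35S::CLE41. The arrays of both genotypes were spread and overlapped, and with a difference of -0.18 (SE 0.15; 95% interval -0.54 to 0.18) the level of *RCA* narrowly missed the bound.

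The wider photosynthesis list held 64 nuclear genes, 10 of which had a named probe set. Of these 10 none was called higher and 1 lower, or 10%, against 14.8% of all probe sets and 12.6% of those tied to 1 gene. The median difference was -0.11, and all 10 differences were below 0, against 11283 of all 22746 probe sets. Of the 10, 5 were in the bright set, whose choice by a high WT mean leans differences to the low side. The 1 called was *SBPASE*, a Calvin cycle phosphatase gene outside the bright set, which fell by 0.66 (SE 0.11; adjusted p = 0.009). *LHCB4.2*, encoding a second form of CP29, lay just under the brightness threshold with 12.55, 12.27 and 12.504 in WT and 12.25, 12.71 and 12.26 in 35S::CLE41. Like *LHCB4.1* it overlapped between the genotypes, and its level held at a difference of -0.04 (SE 0.15; 95% interval -0.39 to 0.31).

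**Figure D3:**
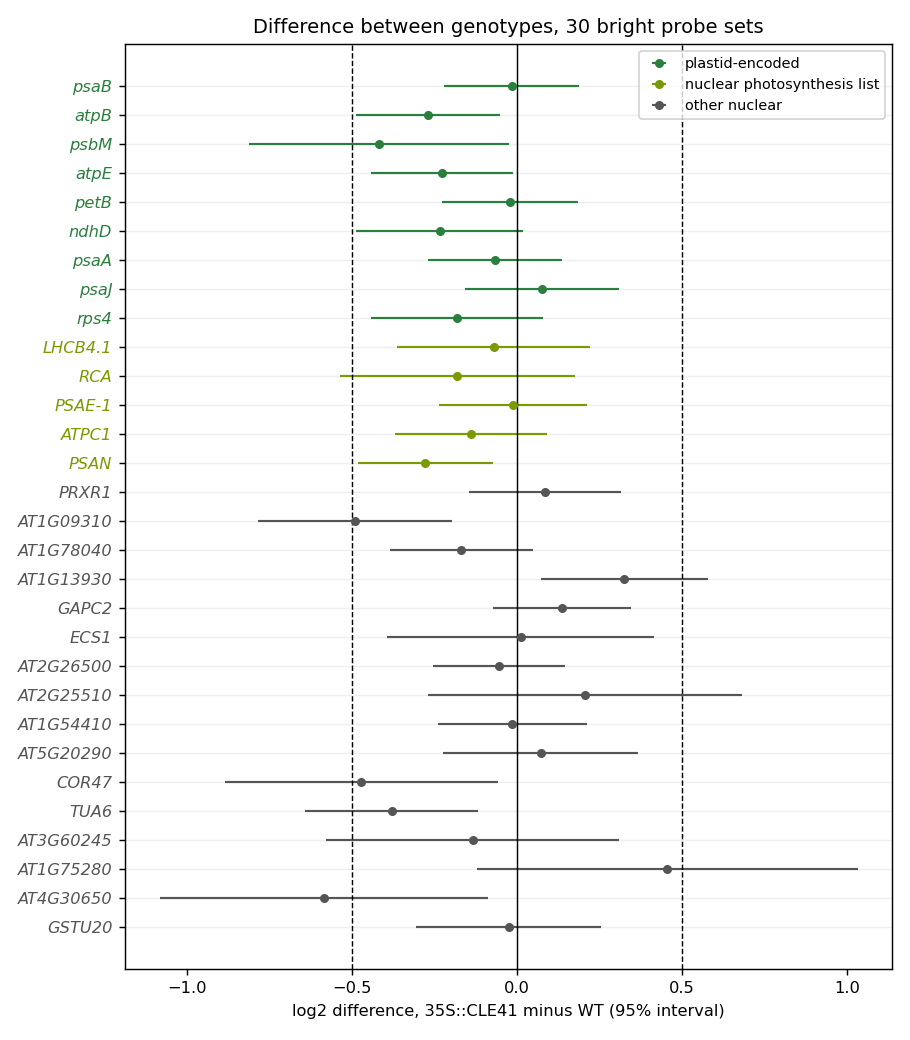
Log2 difference, 35S::CLE41 minus WT (x axis), with its 95% interval from limma for each of the 30 bright probe sets, in the same order and colours as the plot by array. Dashed lines mark 0.5 in either direction, and 20 of the 30 intervals lie between them. These are 8 of 9 for plastid genes, 4 of 5 for listed nuclear photosynthesis genes and 8 of 16 for other nuclear genes.

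Outside photosynthesis the bright genes with a known product included enzymes and the cytoskeleton. *PRXR1* encodes a class III peroxidase, an enzyme family of the cell wall and apoplast. It read 13.70, 13.59 and 13.80 in WT and 13.84, 13.78 and 13.72 in 35S::CLE41. The groups overlapped, and the level held at a difference of 0.09 (SE 0.10; 95% interval -0.14 to 0.31; adjusted p = 0.651). *GAPC2*, encoding the cytosolic glyceraldehyde-3-phosphate dehydrogenase of glycolysis, read 13.07, 13.13 and 13.151 in WT and 13.33, 13.22 and 13.22 in 35S::CLE41. Each 35S::CLE41 array of *GAPC2* lay above each WT array, by a small margin, and the level held at 0.14 (SE 0.09; 95% interval -0.07 to 0.35). The other glycolysis gene measured of 8 listed, *TPI*, differed by -0.16 (SE 0.12; adjusted p = 0.422). *GSTU20*, encoding a tau-class glutathione transferase, read 12.64, 12.40 and 12.67 in WT and 12.38, 12.66 and 12.60 in 35S::CLE41. It had the lowest WT mean of the 30, its groups overlapped, and its level held at -0.02 (SE 0.12; 95% interval -0.31 to 0.26).

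*TUA6*, encoding an alpha-tubulin, the partner of beta-tubulin in microtubules, stood lower in 35S::CLE41 without passing the test. It read 12.59, 12.71 and 12.90 in WT and 12.45, 12.35 and 12.26 in 35S::CLE41. All 35S::CLE41 arrays lay below all WT arrays, and the difference was -0.38 (SE 0.11; 95% interval -0.64 to -0.12; adjusted p = 0.0622). With arrays shifted to 1 median it was -0.458 and passed (adjusted p = 0.043). Of 26 tubulin and actin genes listed, 8 were measured, and *TUB1*, *ACT11* and *TUB5* were called lower while none was called higher. That is 37.5% of the 8, against 14.8% of all probe sets and 12.6% of those tied to 1 gene. *TUB1*, a beta-tubulin gene, fell by 2.86 on the log2 scale, the largest fall of the 3 (SE 0.17; adjusted p = 0.000252). *TUB5* fell by 1.15 (SE 0.11; adjusted p = 0.00101), and *ACT11*, an actin gene, fell by 1.26 (SE 0.12; adjusted p = 0.00119). *TUB6*, the other listed gene near the brightness of *TUA6*, differed by 0.12 (SE 0.13; adjusted p = 0.616). *TUB7*, *TUB9* and *TUA1* differed by -0.27, -0.20 and -0.09 and were not called either.

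A pair of dehydrin genes was in the bright set. Dehydrins are hydrophilic proteins that protect membranes and enzymes when water is withdrawn by cold or drought. *COR47* read 12.88, 12.56 and 13.03 in WT and 12.58, 12.02 and 12.45 in 35S::CLE41. The groups of *COR47* overlapped by a hair, between WT replicate 2 and 35S::CLE41 replicate 1. The difference was -0.47 (SE 0.18; 95% interval -0.89 to -0.06; adjusted p = 0.123), from -0.60 to -0.31 without single arrays, and with the replicate number as a block it was called (adjusted p = 0.0487). AT1G54410, named in RefSeq as the dehydrin gene *HIRD11*, read 12.95, 13.01 and 12.85 in WT and 12.84, 12.98 and 12.95 in 35S::CLE41. Its groups overlapped throughout, and the level held at -0.01 (SE 0.10; 95% interval -0.24 to 0.21). Of 17 cold and drought genes listed, *COR47*, *COR15A* and *COR15B* had a named probe set. None was called, against 14.8% of all probe sets, and 3 had an unadjusted p under 0.05, against 29.3%. *COR47* was itself chosen by its high WT mean, which leans its difference to the low side. The list holds neither AT1G54410, whose role came from its RefSeq name and which lay at -0.01, nor *LTI30*, another dehydrin gene, which differed by 0.40 and whose values are given below. *COR15A* and *COR15B*, which encode chloroplast proteins that protect against freezing, differed by -0.96 (adjusted p = 0.0564) and -0.72 (adjusted p = 0.115). For *COR47*, *COR15A* and *COR15B* 35S::CLE41 replicate 2 was the lowest of the 6 arrays.

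The 9 genes known by locus only held the extremes of the set. AT1G09310 read 13.53, 13.76 and 13.57 in WT and 13.28, 12.91 and 13.20 in 35S::CLE41. It fell by 0.49 on the log2 scale (SE 0.13; 95% interval -0.79 to -0.20; adjusted p = 0.0389), or 1.41-fold. All 35S::CLE41 arrays lay below all WT arrays, but without single arrays the adjusted p lay between 0.0576 and 0.102, with differences from -0.57 to -0.38, and with the replicate block it was 0.0828. AT4G30650 read 12.60, 12.63 and 12.51 in WT and 12.38, 11.46 and 12.14 in 35S::CLE41. Its WT arrays agreed closely while the 35S::CLE41 arrays spread over 0.91, with replicate 2 far below the others. The difference of -0.58 (SE 0.22; 95% interval -1.08 to -0.09; adjusted p = 0.114) shrank to -0.32 without 35S::CLE41 replicate 2.

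On the high side, AT1G75280 read 12.88, 12.01 and 12.92 in WT and 13.29, 12.81 and 13.08 in 35S::CLE41. The low WT replicate 2 set most of its difference of 0.45 (SE 0.25; 95% interval -0.12 to 1.03; adjusted p = 0.281), which was 0.16 without that array. AT1G13930 read 13.43, 13.36 and 13.50 in WT and 13.87, 13.59 and 13.81 in 35S::CLE41. Its 35S::CLE41 arrays lay above all WT arrays, at a difference of 0.33 (SE 0.11; 95% interval 0.07 to 0.58; adjusted p = 0.0888), which passed with array weights (0.357; adjusted p = 0.0417). AT2G25510 read 13.13, 12.56 and 13.25 in WT and 12.99, 13.09 and 13.48 in 35S::CLE41. WT replicate 2 stood alone at the low end, and the difference of 0.21 (SE 0.21; 95% interval -0.27 to 0.68) became -0.0043 without it.

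The other 4 locus-only genes overlapped or differed little. AT3G60245 read 12.52, 13.07 and 12.27 in WT and 12.39, 12.51 and 12.55 in 35S::CLE41. Here WT replicate 2 stood alone at the high end, and the difference of -0.13 (SE 0.19; 95% interval -0.58 to 0.31) became 0.09 without it. AT5G20290 read 12.93, 13.11 and 12.67 in WT and 12.93, 13.02 and 12.98 in 35S::CLE41, and its level held at 0.07 (SE 0.13; 95% interval -0.22 to 0.37). The 35S::CLE41 arrays of AT5G20290 lay inside the WT range. AT1G78040 read 13.56, 13.51 and 13.60 in WT and 13.41, 13.29 and 13.45 in 35S::CLE41, and its level held at -0.17 (SE 0.09; 95% interval -0.39 to 0.05; adjusted p = 0.287). AT2G26500 read 12.98, 12.98 and 12.99 in WT and 12.89, 12.94 and 12.95 in 35S::CLE41, and its level held at -0.05 (SE 0.09; 95% interval -0.25 to 0.15). For both, all 35S::CLE41 arrays lay below all WT arrays. *ECS1* read 13.11, 12.73 and 13.16 in WT and 12.74, 12.98 and 13.31 in 35S::CLE41. It was spread in both genotypes, and the level held at 0.01 (SE 0.18; 95% interval -0.39 to 0.42), a difference that was -0.12 without WT replicate 2.

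The wild-type arrays agreed closely on most of the 30. The median SD of the 30 was 0.09 in WT and 0.09 in 35S::CLE41, against 0.15 and 0.13 over all probe sets. The WT range passed 0.5 for 3 of them, AT1G75280, AT2G25510 and AT3G60245, each time through WT replicate 2. That array lay at an end of the WT values for 24 of the 30, as did WT replicate 3 for 26 and WT replicate 1 for 10. 35S::CLE41 replicate 2 was the lowest of its genotype for 16 of the 30 and the lowest of all 6 arrays for 10. Without WT replicate 2 none of the 30 was called, 20 held, and the median difference was -0.09.

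The brightness threshold was crossed in both directions. In 35S::CLE41, 23 of the 30 still had a mean at or over it, and 21 were at least that bright on all 6 arrays. The 7 that slipped under were *ATPC1*, AT3G60245, *rps4*, *TUA6*, *COR47*, *PSAN* and AT4G30650, none of which was called. Values just inside the threshold in wild type were 12.57 for *GSTU20*, 12.57 for *PSAN* and 12.58 for AT4G30650, and those just outside were 12.48 for AT1G52300, 12.44 for *LHCB4.2* and 12.44 for AT5G38980.

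Another 6 genes reached the threshold in 35S::CLE41 but not in wild type, and since 35S::CLE41 values chose them their differences are a description. *BCAT4*, encoding an aminotransferase of methionine chain elongation in glucosinolate synthesis, read 12.64, 11.85 and 12.52 in WT and 12.85, 13.03 and 12.92 in 35S::CLE41. *GAMMA-VPE*, encoding a vacuolar processing protease, read 11.81, 10.61 and 11.85 in WT and 12.71, 12.75 and 12.5002 in 35S::CLE41. *LTI30*, a cold-induced dehydrin gene, read 12.63, 11.87 and 12.61 in WT and 13.14, 12.41 and 12.78 in 35S::CLE41. WT replicate 2 was by far the lowest array for these 3 genes. The other 3 were *AILP1*, AT4G16190 and AT1G67865, with log2 differences of 0.66, 0.58 and 0.73. WT replicate 2 was also the lowest array for *AILP1* (11.72) and AT4G16190 (11.90), and WT replicate 3 was the lowest for AT1G67865 (11.74). With WT replicate 2 left out of the choice, AT3G60245 would leave the bright set and *LTI30*, *BCAT4*, *SAMDC*, *LHCB4.2* and *PRK* would join it.

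**Figure D4:**
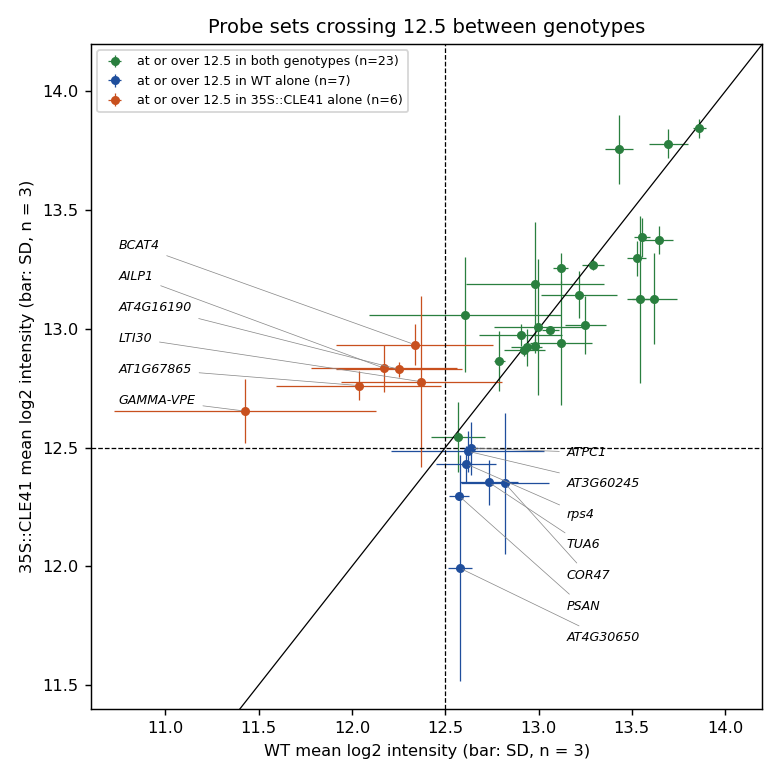
Mean log2 intensity in 35S::CLE41 (y axis) against WT (x axis), with bars of 1 SD (n = 3 each), for every 1-gene probe set at or over the brightness threshold (dashed lines) in either genotype; the solid line marks equal means. The 23 green points pass it in both, the 7 blue in WT alone and the 6 orange in 35S::CLE41 alone, and most orange points have wide WT bars.

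The share of called probe sets changed with brightness across the array. Among probe sets tied to 1 gene it was 4.99% under a WT mean of 6, 24.8% from 10 to 12, 19.5% of the 41 from 12 to the brightness threshold, and 3.33% of the 30. In the band just under the threshold were 1 gene called higher and 7 lower, and without WT replicate 2 there were 1 and 6. The share of held levels was 78.7% under 6, 36.2% from 10 to 12, 48.8% in the band just under the threshold and 66.7% in the 30. The median absolute log2 difference was 0.09, 0.27, 0.22 and 0.15 in these bands, with median SEs of 0.11, 0.13, 0.12 and 0.11. The dimmest band thus held more often than the 30. The low share of calls was not shared by all probe sets of this brightness. Among the 94 without a single gene, 1 was called higher and 15 lower, or 17%, against 14.8% of all probe sets. Held levels were 66% of the 94, against 54.6% of all probe sets. Without WT replicate 2, 1 of the 94 was called higher and 11 lower. That is 12.8%, against 12.6% of all probe sets in the same fit. Of the 94, 4 differed at least 2-fold. The difference between the 30 and the 94 was not tested.

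**Figure D5:**
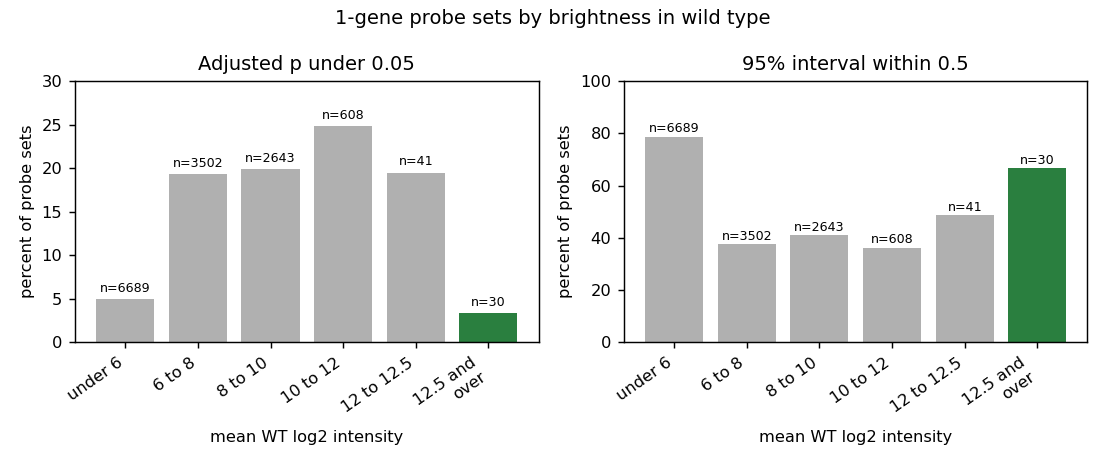
Percent of 1-gene probe sets called at an adjusted p of 0.05 (left) and percent whose 95% interval lies within 0.5 of 0 (right), by mean WT log2 intensity (x axis), with the number of probe sets over each bar. The 30 bright probe sets, in green, have 3.33% called and 66.7% held; the band from 10 to 12 has 24.8% and 36.2%, and the band under 6 has 4.99% and 78.7%.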

How the data were processed

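RNA was extracted with Trizol and hybridised as biotin-labelled target, per the labels' protocols. The authors deposited 1 normalized, linear intensity per probe set and array (medians 91.9 to 101). The submitters' processing notes name RMA and limma without versions or roles, and no genome build was found in these sources. No background or saturation mark was used here, so whether differences of bright probe sets are compressed was not tested.

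Log2 of each value was taken. Of 22746 probe sets, 13513 had 1 gene in the platform table, 503 several, and 8730 were not listed. Symbols came from the RefSeq gene table (TAIR10.1), which held 13436 of the 13513. Genotype was fitted over all probe sets with limma 3.58.1 in R 4.3.3 (two-sided, Benjamini-Hochberg threshold 0.05), and the procedure was tested on simulated data. No exact permutation test was made, since p = 0.1 is the smallest that 3 against 3 arrays allow. The members, gene lists and the rule for named genes (brightest, called, per role, nearest the threshold) were chosen with earlier results of these data known, and all 30 members are named. Plastid neighbours, the genes that crossed the threshold and those of the lists were named after their values were seen. No sequences were used here. Same-numbered arrays deviated together little (correlations -0.0102, 0.0805 and -0.0925), so the numbers were not taken as pairs. Figures were drawn with matplotlib 3.10.9.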

Additional observations from a re-analysis of the deposited data

How the results depend on the processing

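With all arrays kept, the count of bright probe sets called lower was 1 and that called higher 0; array weights gave 2 and 1, and arrays shifted to 1 median gave 3 lower, 15 held and a median of -0.15. That shift turned the split over all probe sets from 1803 higher and 1561 lower to 1392 and 1975. Without single arrays 0 to 1 were called lower, 0 higher, 14 to 20 held, and the median ran from -0.10 to -0.05. Chosen at a log2 mean of 12, the 71 probe sets had 1 called higher, 8 lower and 40 held; at 13, the 14 had 10 held and a median of -0.12. Chosen by the mean of 6 arrays (32 probe sets) the median was -0.0226, and by the 35S::CLE41 mean 2 were called higher and the median was -0.013. Some choices added after seeing the data used 1 WT array to choose and the other 5 to fit. They gave 2 higher and 0 lower of 36 for WT replicate 1 and 0 higher and 1 lower of 31 for WT replicate 2. For WT replicate 3 the counts were 0 and 0 of 35. Another added choice used WT replicates 1 and 3, kept both in the fit and left WT replicate 2 out. It gave 0 and 0 of 34. With the replicate block, 1 was called lower, *COR47* in place of AT1G09310, 18 held, and 2897 probe sets were called in all. Eliminating the dimmest 40%, eBayes with trend and robust settings, quantile normalization again, gene-specific probe sets and 1 probe set per gene kept 1 lower and 0 higher.

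For single genes 325 of 360 alternative values kept their sign and call, 7 were no longer called, all of AT1G09310, 6 gained one and 22 reversed. Outside single arrays the reversals were *ECS1* (-0.11 with array weights, -0.0673 with 1 median), AT5G20290 (-0.0073) and *psaJ* (-0.0034) with 1 median, and AT1G54410 (0.0036), *PSAE-1* (0.0066) and *GSTU20* (0.0018) with quantile normalization. Ranges without single arrays that crossed 0 were -0.0393 to 0.00304 for *psaB*, -0.0401 to 0.0135 for *petB*, -0.165 to 0.0379 for *LHCB4.1*, -0.138 to 0.147 for *ECS1*, -0.0043 to 0.341 for AT2G25510, -0.0589 to 0.0287 for AT1G54410, -0.0546 to 0.0477 for *PSAE-1*, -0.0465 to 0.175 for AT5G20290, -0.308 to 0.09 for AT3G60245 and -0.109 to 0.0593 for *GSTU20*. None of these genes was called in any setting. No cause of a difference was tested.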
